A study of Mus musculus with 2 samples.

Results

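Checkpoint receptors are surface proteins that raise or restrain the signal a T cell receives through its antigen receptor. Their transcripts were examined in regulatory T cells (Tregs), the Foxp3-expressing T cells that hold immune responses in check, sorted from mouse adipose tissue. The members were 10 genes given by name, and 8 of them have a row among the 10219 genes of the count table: Ctla4, Pdcd1, Icos, Havcr2, Tigit, Cd28, Cd200 and Cd274. Lag3 and Cd160 were not analysed here, because no row carries their symbol or Ensembl ID. Cd200 and Cd274 encode surface proteins that act mainly as ligands, so the name receptor covers them loosely.

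The control library came from Foxp3Cre mice and the knockout library from Hif1afl/fl;Foxp3Cre mice, in which the same Cre recombinase acts on a floxed Hif1a gene in cells that express Foxp3. Both were C57BL/6 mice aged 4 months, and the Cre allele is shared by both groups. Hif1a encodes HIF-1 alpha, the subunit whose stability depends on oxygen. Each genotype has 1 library, so the spread between animals is unknown and each difference below lacks a replicate check. How many mice were pooled, which markers the sort used and which exons are floxed were not stated in the labels.

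The CD28 family sets the second signal of T cell activation. CD28 costimulates naive and resting T cells through CD80 and CD86, ICOS is a related costimulator induced on activation, and CTLA-4 competes with CD28 for its ligands and is held at high levels by Tregs. PD-1, TIGIT and TIM-3 (encoded by Pdcd1, Tigit and Havcr2) are inhibitory receptors of activated T cells, and activated tissue Tregs commonly carry them. PD-L1 (Cd274) engages PD-1, and CD200 engages the inhibitory receptor CD200R.

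Because the comparison concerns HIF-1, the promoter windows of the members were searched for the core of the HIF-1 response element, ACGTG or GCGTG on either strand; ACGTG overlaps the E-box CACGTG, which none of these windows holds. RefSeq promoters of build GRCm38.p6 were matched by symbol for 7 of the 10 members, not for Icos, Cd28 or Lag3, and the 250 bases before the start were searched. The 4 windows below, all of genes with values, hold 1 core each, shown in capitals (CACGT is ACGTG on the other strand); they are shown because they contain genes on both sides of the comparison.
Tigit (chr16:43664185-43664434, minus strand): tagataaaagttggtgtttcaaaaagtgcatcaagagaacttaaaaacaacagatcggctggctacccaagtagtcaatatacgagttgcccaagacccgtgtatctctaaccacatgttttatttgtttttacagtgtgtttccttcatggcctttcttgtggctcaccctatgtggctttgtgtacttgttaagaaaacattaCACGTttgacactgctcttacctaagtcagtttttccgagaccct
Ctla4 (chr1:60908775-60909024, plus strand): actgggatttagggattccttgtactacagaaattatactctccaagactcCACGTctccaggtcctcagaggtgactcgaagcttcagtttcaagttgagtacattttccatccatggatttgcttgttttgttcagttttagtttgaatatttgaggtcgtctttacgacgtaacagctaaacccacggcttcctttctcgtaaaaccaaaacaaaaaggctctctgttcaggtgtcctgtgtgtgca
Havcr2 (chr11:46454681-46454930, plus strand): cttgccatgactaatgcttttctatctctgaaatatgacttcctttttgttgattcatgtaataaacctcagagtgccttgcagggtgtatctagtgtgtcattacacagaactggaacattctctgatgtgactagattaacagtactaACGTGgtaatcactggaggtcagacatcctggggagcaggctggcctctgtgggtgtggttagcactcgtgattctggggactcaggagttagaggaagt
Cd274 (chr19:29367188-29367437, plus strand): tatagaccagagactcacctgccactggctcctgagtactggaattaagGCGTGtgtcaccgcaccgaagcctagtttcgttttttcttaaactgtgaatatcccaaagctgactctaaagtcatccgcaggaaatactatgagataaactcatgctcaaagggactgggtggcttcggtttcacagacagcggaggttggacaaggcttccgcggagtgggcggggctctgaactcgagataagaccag
The core lies 45 bases before the start in Tigit, 199 in Ctla4, 100 in Havcr2 and 201 in Cd274, counted to its first base. The windows of Pdcd1 and Cd200 hold no core. Tigit, Ctla4 and Havcr2 had lower levels in the knockout library and Cd274 a higher one, and the pair without a core also lay on opposite sides. A core in either form occurs in 57.4% of the 9660 promoter windows of listed genes and in 38.6% of all 32851 windows. The cores of other factors were searched in the same way. The NFAT core GGAAA was found in the windows of Tigit, Ctla4, Pdcd1 and Cd274 and in 54.6% of those of listed genes, the AP-1 core TGANTCA in that of Havcr2 and in 4.22%, and the forkhead core TAAACA in none of the 6 with values and in 7.65%. A match describes these letters only and is not a measured binding site.

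Counts were scaled for library size by TMM, a method that sets the scale on genes near the middle of the distribution of ratios, and are given as counts per 1000000 (CPM). A gene was called higher or lower when its scaled count differed at least 2-fold. Of the 8 genes, Tigit and Icos were called lower, where 8.78% of all listed genes were, and Cd200 was called higher, where 11.4% were. In all, 6 of the 8 had lower values in the knockout library, and the median log2 ratio of the 8, knockout over control on CPM + 0.5, was -0.55, beside 0.0054 for all listed genes. When the libraries were scaled on pan T cell markers that median became -0.75, the same 3 genes were called, and the table held 901 higher and 1316 lower genes in place of 1170 and 897. In bulk RNA, fewer cells with a transcript and less transcript per cell cannot be told apart.

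**Figure D1:**
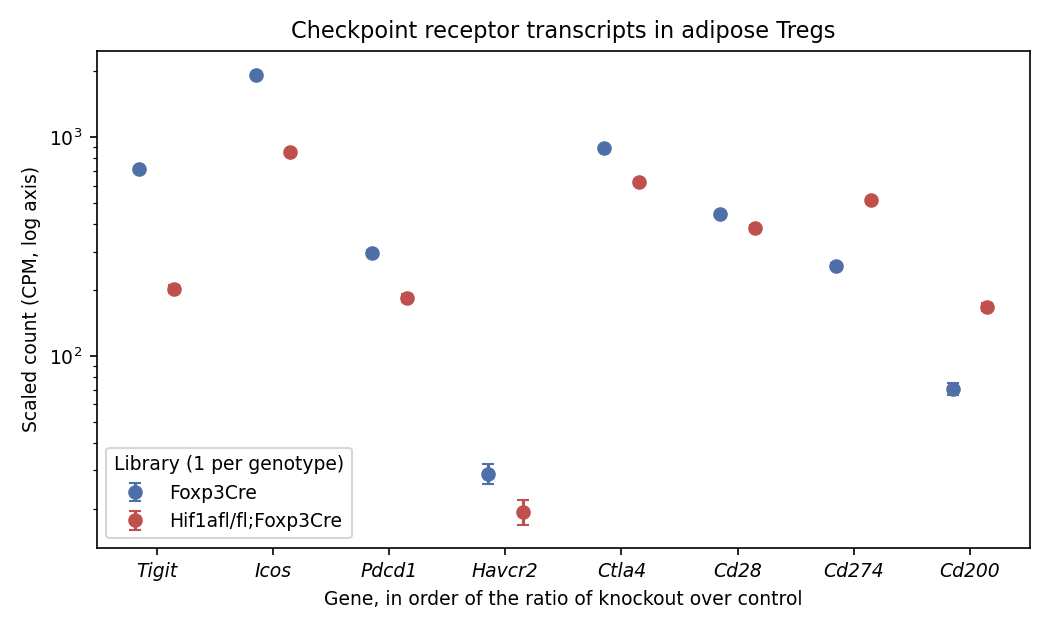
Scaled counts of the 8 genes in the 2 libraries (CPM, log axis), in order of the ratio between them; each point is 1 library, and bars are 95% counting intervals, mostly smaller than the points. The points lie farthest apart for Tigit, at 203 and 714 CPM, and only Cd274 and Cd200 have their knockout point above the control point.

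Among the costimulatory receptors, Icos (ENSMUSG00000026009) had 9876 counts in the knockout library against 25743 in the control, or 860 and 1937 CPM. The knockout level was 0.444 of the control level, or 2.25-fold lower, and the 95% counting interval of that share ran from 0.434 to 0.454. Cd28 (ENSMUSG00000026012) had 4416 and 5916 counts, or 384 and 445 CPM, a level 1.16-fold lower (1.11 to 1.20). Cd28 was thus the closest of the 8 genes to equal levels. The 2 costimulators did not differ alike: the library held 4.35 Icos counts per Cd28 count in the control and 2.24 in the knockout, and this ratio was 1.95-fold lower in the knockout library (1.86 to 2.04). A ratio of counts within a library does not depend on the scaling. Cd28, Ctla4 and Icos neighbour each other on chromosome 1, and their log2 ratios were -0.21, -0.52 and -1.17. The next listed gene beyond Icos, the receptor gene Nrp2, had a log2 ratio of 2.55. An unclassified transcript within Icos on the same strand, Gm37039, has its own row, so the counting of reads that both share is uncertain for Icos.

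Ctla4 (ENSMUSG00000026011), the CD28 relative that strips CD80 and CD86 from presenting cells, had 7142 counts against 11863, or 622 CPM against 892 CPM. Its level in the knockout library was 1.44-fold lower (1.39 to 1.48), short of the 2-fold rule. Per Cd28 count there were 1.62 Ctla4 counts in the knockout library against 2.01, a ratio 1.24-fold lower (1.18 to 1.30). Per Icos count the order was the other way: Ctla4 stood at 0.723 in the knockout library against 0.461, 1.57-fold higher (1.51 to 1.63). Its annotated span also holds the pseudogene Rpl18-ps1.

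Tigit (ENSMUSG00000071552) had the lowest ratio of the 8 genes. It had 2332 counts in the knockout library against 9495 in the control, or 203 and 714 CPM, a level 3.52-fold lower (3.36 to 3.68), and its log2 ratio of -1.81 lay at percentile 2.12 of all listed genes. TIGIT shares the ligand CD155, encoded by Pvr, with the activating receptor CD226 and with CD96. Cd226 stood at 92.5 CPM in the knockout library against 79.9 CPM in the control. Cd96, from 865 and 57 counts, stood at 75.3 CPM against 4.29 CPM, a 17.6-fold higher level (13.4 to 23.4). The control library held 8.94 Tigit counts per Cd226 count and the knockout library 2.19, so that this ratio in the knockout library was 0.245 of that in the control library (0.223 to 0.271). Per Cd96 count there were 167 Tigit counts in the control library and 2.70 in the knockout. Pvr itself stood at 51.8 CPM against 34.5 CPM, a log2 ratio of 0.58.

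Pdcd1 (ENSMUSG00000026285), which encodes PD-1, had 2118 counts in the knockout library against 3933 in the control, or 184 and 296 CPM. It was 1.61-fold lower (1.52 to 1.69). Havcr2 (ENSMUSG00000020399), which encodes TIM-3, was the least counted of the 8, with 221 and 383 counts, or 19.2 and 28.8 CPM. Its knockout level was 0.668 of the control level, and the few counts left the widest interval of the 8 genes relative to its value, 0.563 to 0.790. Lgals9, which encodes the TIM-3 ligand galectin-9, was 1.43-fold lower (1.39 to 1.48). The ratio of Havcr2 to Lgals9 counts was 0.0352 in the knockout library against 0.0369; the interval of its change, 0.803 to 1.13, included 1, and neither equality nor a difference of that size was shown.

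Cd274 and Cd200 lay on the other side. Cd274 (ENSMUSG00000016496) had 5907 counts in the knockout library against 3423 in the control, or 514 and 258 CPM, a level 1.996-fold higher (1.91 to 2.08). It therefore stood just under the 2-fold rule and crossed it, at 2.05-fold, when scaled by total count. Pdcd1lg2, the neighbouring gene for the other PD-1 ligand PD-L2, was 1.43-fold lower, at 29.9 CPM against 42.7 CPM. Per Pdcd1lg2 count there were 17.2 Cd274 counts in the knockout library against 6.03, 2.85-fold more (2.47 to 3.29). Receptor and ligand differed in opposite directions: the ratio of Pdcd1 to Cd274 counts was 1.15 in the control and 0.359 in the knockout library, 3.20-fold lower (2.99 to 3.43).

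Cd200 (ENSMUSG00000022661) had 1919 counts in the knockout library against 938 in the control, or 167 and 70.6 CPM, and was 2.37-fold higher (2.19 to 2.56). Its receptor gene Cd200r1 was 2.24-fold lower, at 143 CPM against 319 CPM. The control library held 0.221 Cd200 counts per Cd200r1 count and the knockout library 1.17, a ratio 5.30-fold higher (4.80 to 5.84). The nearest listed neighbours of Cd200, Btla and Abhd10, had log2 ratios of 2.48 and 0.42.

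Levels of different genes were compared per kb of annotated exon, as CPM per kb. In the control library Tigit was highest at 777 CPM per kb, followed by Icos at 565, Ctla4 at 383 and Pdcd1 at 153 CPM per kb. Cd28 and Cd274 followed at 72.7 and 71.1 CPM per kb, with counting intervals that overlapped, then Cd200 at 21.2 and Havcr2 at 10.6 CPM per kb. The knockout library had another order, with Ctla4 first at 267 CPM per kb, Icos at 251, Tigit at 221 and Cd274 at 142 CPM per kb. Pdcd1 had 95.5, Cd28 62.8, Cd200 50.3 and Havcr2 7.07 CPM per kb. Tigit thus went from rank 1 to rank 3 of the 8 and Cd274 from rank 6 to rank 4. The ranks in both libraries were the same with the longest transcript of each gene as its length. Within all listed genes Tigit stood at percentile 99.4 by level per kb in the control and 97.6 in the knockout library, and Ctla4 at 98.6 and 98.0. Havcr2 stood at 61.5 and 49.5.

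The make-up of the summed counts of the 8 genes shifted accordingly. Icos took 41.7% of the 61694 counts in the control library and 29.1% of the 33931 in the knockout library. The share of Tigit was 15.4% and 6.87%. Cd274 had 5.55% in the control and 17.4% in the knockout library. The exact binomial intervals of each of these pairs of shares did not overlap, but they cover counting error only. The inhibitory receptors Ctla4, Pdcd1, Tigit and Havcr2 together had 0.811 counts per count of Cd28 and Icos in the control and 0.827 in the knockout library, a ratio of 1.02 between libraries (0.990 to 1.05). This sum was chosen after its members' values were seen. Its most counted genes were Icos and Ctla4, followed by Tigit in the control library and by Cd28 in the knockout library.

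Foxp3, the defining transcription factor of Tregs, was itself 2.24-fold lower (2.02 to 2.48), with 46.4 CPM against 104 CPM from 533 and 1379 counts. Each gene was also read per Foxp3 count. This ratio is not a level per Treg, because the amount of Foxp3 transcript per cell may itself differ, which was not tested. Icos had 18.5 counts per Foxp3 count in the knockout library against 18.7, a change of 0.993 (0.895 to 1.10). Tigit had 4.38 and 6.89, 1.57-fold lower in the knockout library (1.41 to 1.76). Ctla4, at 13.4 against 8.60, was 1.56-fold higher per Foxp3 count (1.40 to 1.73). Pdcd1 and Havcr2 were 1.39-fold and 1.49-fold higher, and Cd28 1.93-fold higher. Cd274 and Cd200 were 4.46-fold and 5.29-fold higher. Per Foxp3 count, 6 of the 8 genes therefore lay higher in the knockout library by intervals above 1, Tigit lay lower, and the interval of Icos included 1. The log2 ratio of Foxp3 lay at percentile 6.79 of all listed genes, so most listed genes also lay higher per Foxp3 count. A higher value per Foxp3 count is thus not particular to these genes.

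**Figure D2:**
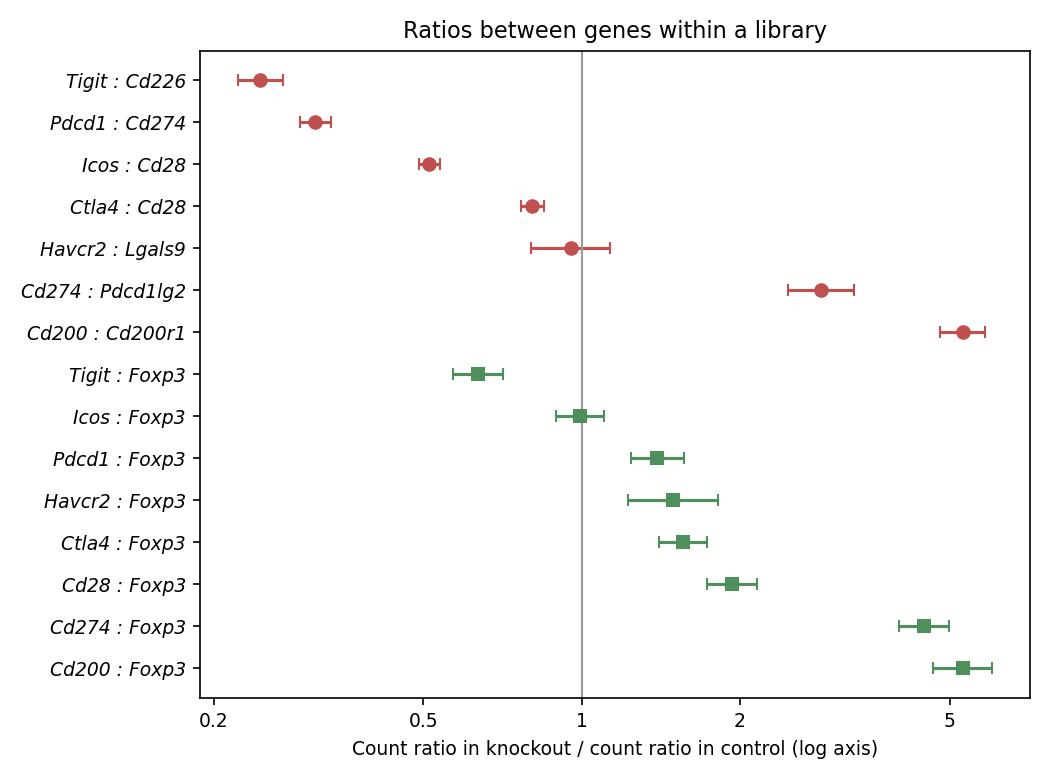
Change between libraries of the ratio of 2 genes' counts (ratio in knockout over ratio in control, log axis), with exact 95% counting intervals. Circles are receptor pairs, receptor-ligand pairs and the ligand pair Cd274 and Pdcd1lg2. Squares are ratios to Foxp3, and ratios to Cd96 are not drawn. Of the ratios drawn, Tigit to Cd226 sits lowest, at 0.245, and Cd200 sits highest, at 5.30 over Cd200r1 and 5.29 over Foxp3.

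The other genes of these pathways were described from fixed lists, whose counts are read against the 11.4% of all listed genes called higher and the 8.78% called lower. The list of other co-receptors has 25 symbols, an alternative one for Cd244 included, of which 17 have a row. Of these, 9 were called higher, above that background, and 2 lower, a share near it, and the list's median log2 ratio was 1.09. Slamf6, a receptor of the SLAM family, was 17.8-fold higher and Cd96 was next at 17.6-fold. Btla, an inhibitory receptor for HVEM, was 5.92-fold higher (4.74 to 7.47), from 481 and 94 counts. The lowest were Klrg1, a marker of differentiated lymphocytes, 36.6-fold lower, and Entpd1, the ectoenzyme CD39, 2.52-fold lower. Another ectoenzyme, CD73 (encoded by Nt5e), is counted among the 9 and was 5.02-fold higher, so the list is not made of co-receptors alone. Because Klrg1 was so abundant, the list's summed CPM was lower in the knockout library, 2215 against 2623, although its median was above 0. The list of TNF receptor family costimulators has 9 genes, of which 8 have a row. Of these, 2 were called higher and 4 lower, with a median of -0.89, from Tnfrsf8 at -4.27 to Cd40 at 2.10. The 4 include Cd40lg, 2.30-fold lower, which encodes the ligand of CD40 and not a receptor.

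The list of checkpoint ligands and binding partners has 22 symbols, older ones for Nectin2 and Nectin3 included, of which 13 have a row; 5 were called higher and 1 lower, beside 11.4% and 8.78% of all listed genes, and the median was 0.58. The gene called lower, Cd200r1, encodes a receptor, and no ligand with a row was called lower. The list holds Cd274 too. Cd86, a ligand of both CD28 and CTLA-4, was 3.79-fold higher (3.51 to 4.09), at 254 CPM against 67.0 CPM, whereas Cd80 was 1.30-fold higher (1.05 to 1.61), from 184 and 164 counts. Icosl had 68 and 60 counts, and its interval included equal levels. H2-Ab1, which encodes a chain of the class II molecules that LAG-3 binds, was 4.01-fold higher, and Lgals3, which encodes galectin-3, 3.96-fold higher. The rest of the 5 called higher were also class II genes, H2-Aa at 3.94-fold and H2-Eb1 at 2.73-fold. Myeloid cells also carry Cd86, Lgals3, H2-Ab1 and Cd274.

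The list of checkpoint signalling has 26 symbols, an older one for Bag6 included, of which 25 have a row. Of these, 7 were called higher and 0 lower, beside 11.4% and 8.78% of all listed genes. The 7 include Pdcd4, 2.26-fold higher, which is no part of PD-1 signalling although its symbol resembles Pdcd1. The list's median log2 ratio was 0.28, or 0.07 when scaled on pan T cell markers, which shifted the all-gene median by -0.20. Sh2d1a, the adaptor SAP of the SLAM family, was 8.38-fold higher and Cblb, a ubiquitin ligase that restrains CD28 signalling, 3.95-fold higher. Ptpn6, which encodes the phosphatase SHP-1, was 2.61-fold higher (2.26 to 3.02), while Ptpn11, which encodes the PD-1 effector SHP-2, was 1.17-fold higher (1.04 to 1.33). Grb2, an adaptor of CD28, and Sh2d2a had the lowest log2 ratios, -0.70 and -0.96. All 11 genes of CTLA-4 trafficking and receptor shedding have a row, and 10 were within 2-fold; Trat1, an adaptor that escorts CTLA-4 to the surface, was 5.75-fold higher (4.99 to 6.63). Lrba, which protects CTLA-4 from lysosomal breakdown, had a log2 ratio of 0.31, and the clathrin adaptor genes Ap1m1 and Ap2m1 had -0.86 and -0.66. The median of the trafficking and shedding list was -0.03, or 0.01 with total-count scaling and -0.23 with pan T cell marker scaling. Its mean was 0.07.

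Of 23 transcription factors linked to checkpoint genes, 20 have a row, 4 were called higher and 6 lower, beside 11.4% and 8.78% of all listed genes, with a median of -0.05 and a mean of 0.04. Tox2 was 15.9-fold lower (13.0 to 19.8) and Prdm1, which encodes Blimp-1, 5.30-fold lower. Tcf7 and Bach2, factors of naive and memory T cells, had log2 ratios of 4.90 and 4.01. Hif1a, the targeted gene, was 1.63-fold lower (1.59 to 1.68), with 8958 counts against 16927; whole-gene counts include exons outside any deleted part, so this is a limited check of the genotype.

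**Figure D3:**
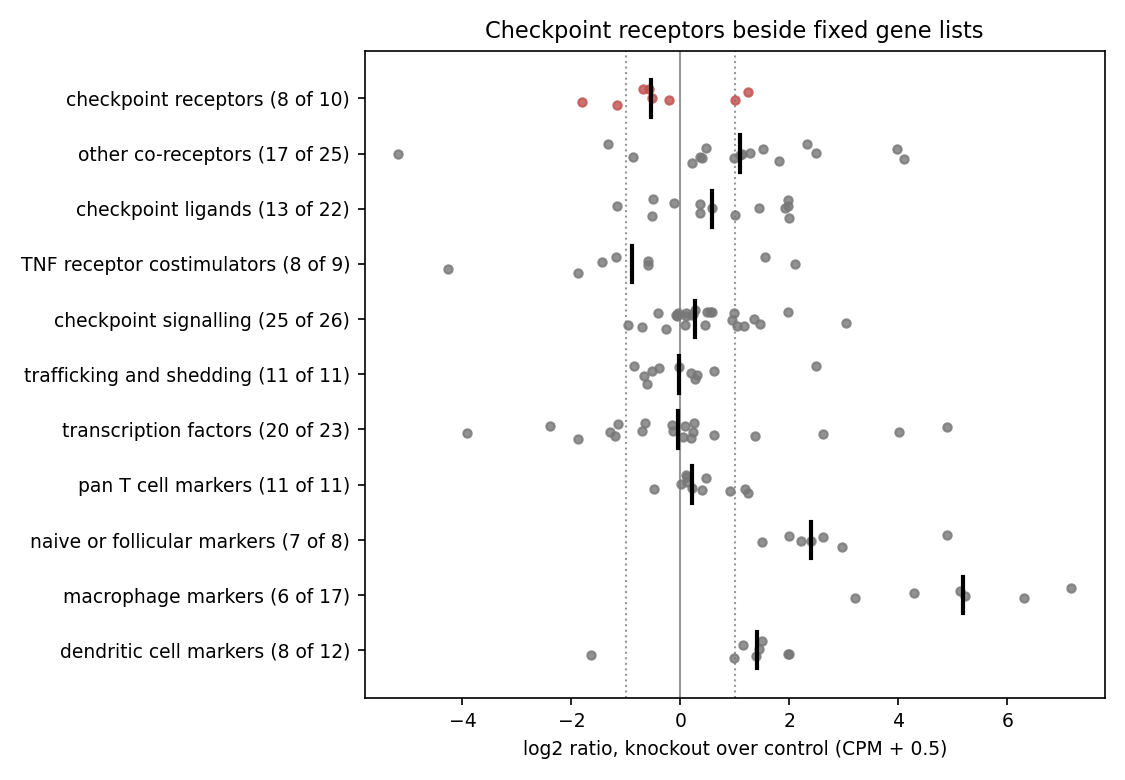
Log2 ratio of knockout over control (CPM + 0.5) for each gene with a row, by fixed list. Points are genes, black bars are medians and dotted lines mark 2-fold. The numbers after each name say how many of the list's symbols have a row. The checkpoint receptors have a median of -0.55, the other co-receptors 1.09 and the macrophage markers 5.18.

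Markers of the sorted cells and of other cells were read beside these values. For the 11 pan T cell markers the median log2 ratio was 0.21, with 2 called higher and only Trac below 0, at -0.48. Those called were Trbc1 and Trbc2, 2.37-fold and 2.27-fold higher. Their near-identical sequences make the split of counts between them uncertain. Of 12 Treg markers, which include Ctla4, 3 were called higher and 3 lower, beside 11.4% and 8.78% of all listed genes, with a median of -0.56 and a mean of 0.07. Those called higher were Gpr83 (17.6-fold), Izumo1r (6.93-fold) and Nrp1 (5.22-fold). Those called lower were Il2ra (7.14-fold), Tnfrsf9 (3.65-fold) and Foxp3 (2.24-fold). Of 8 adipose Treg markers, 7 were called lower, with a median of -3.29; the exception, Cd36, is also abundant in macrophages. The 7 of 8 naive or follicular T cell markers with a row were all called higher, and their summed level was 1574 CPM in the knockout library against 363 CPM. The 6 of 17 macrophage markers with a row were all called higher, with a summed level of 3657 CPM against 245 CPM. Of 12 dendritic cell markers, 8 have a row and 7 were called higher, with 2010 CPM against 622 CPM. Xcr1 was called lower, at 4.09 CPM in the knockout library against 13.8 CPM. Of these 8, 3 are class II genes that the ligand list also holds. Ccr7, at 679 CPM against 239 CPM, is in both the dendritic cell list and the naive or follicular list and adds to both sums. CD8 T and natural killer markers, 4 of 8, summed to 120 CPM against 121 CPM with a median of 0.60, and B cell markers, 3 of 6, to 293 CPM against 151 CPM with a median of -0.27 and a mean of 0.20. No listed marker is at 0, because the lowest count in the table is 12 for the knockout library and 14 for the control. The lowest mean of the 2 counts is 50.5. Lyz2 and Pf4, with 35 and 32 control counts, reach that mean only through 5190 and 2648 knockout counts. The same holds for part of the naive or follicular list. That all markers with a row were higher in these 2 lists is therefore partly set by which genes have a row. The part that other cells had in the values of Cd274, Cd200 and the 6 lower genes was not tested.

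**Figure D4:**
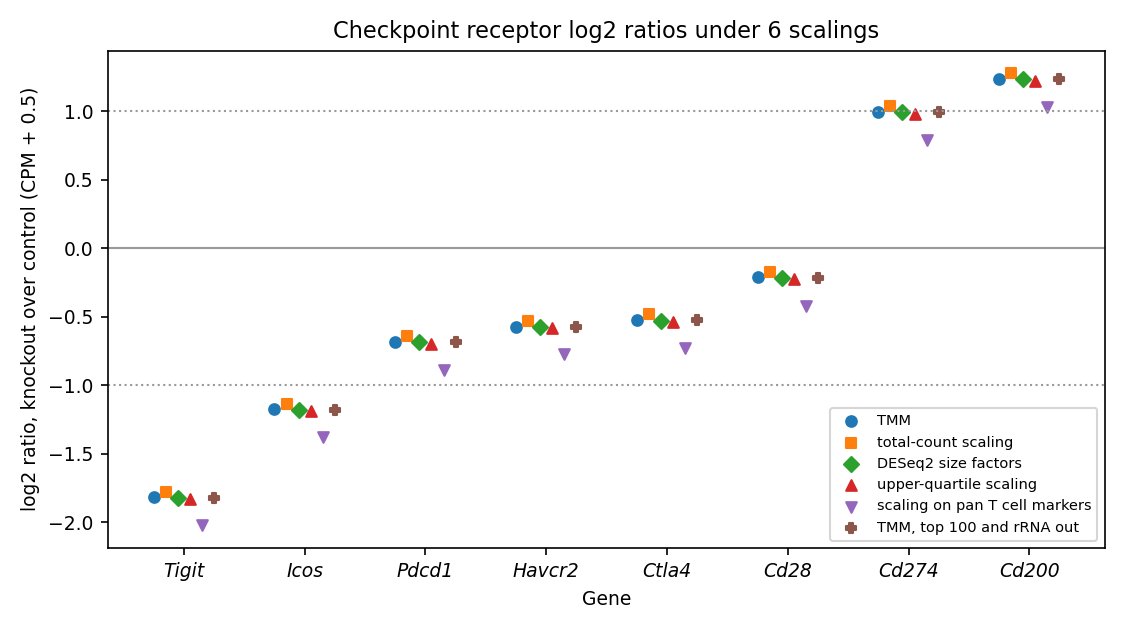
Log2 ratio of knockout over control (CPM + 0.5) of the 8 genes under 6 scalings of the libraries; each marker shape is a scaling, and dotted lines mark 2-fold. No gene changes sign, and Cd274 lies between 0.79 on pan T cell markers and 1.03 with total counts.

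In the authors' deposited table the edgeR adjusted p-value was under 0.05 for all 8 genes with a row, and also for 73.3% of all listed genes. The largest of the 8 values in the authors' deposited table, 2.6e-06, belonged to Havcr2. Those p-values compare 2 libraries and not the genotypes.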

How the data were processed

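Bulk RNA sequencing was compared between 2 libraries, 1 per genotype. The submitters' processing notes name HTSeq 0.6.1, TopHat2 2.0.12, Bowtie2 2.2.3, edgeR and a build mm8; the annotation, the strand setting and any count filter were not stated. The authors deposited raw whole-number counts, whose sums over the listed genes, 11337415 for the knockout library and 13472317 for the control, are not the sequencing depth. The lowest mean of the 2 counts is 50.5. The authors also deposited that mean and a signed ratio of raw counts, both a score here, with a likelihood ratio score, a log2 fold change, an average log2 CPM, a p-value and an adjusted p-value named as edgeR names them, per the file headers.

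Counts were scaled by TMM (edgeR 4.0.16, R 4.3.3). Folds are ratios of scaled counts with exact conditional binomial 95% intervals (scipy 1.17.1), log2 ratios use CPM + 0.5, and ratios between genes have exact conditional intervals of the odds ratio. These intervals reflect counting error alone and treat every read as independent. PCR copies are no independent molecules, so the intervals may be too narrow even for that error. With 1 library a group no test was made. Of 20 planned gene ratios, 5 involved a gene without a row; 4 were added after values were seen. Exon lengths come from GENCODE M21 (GRCm38), where 10200 of the 10219 IDs were found; since the build differs, no coordinates of counted genes are given. The 14 symbols stored as dates were restored by Ensembl ID. The computation was tested on simulated data.

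The members, 7 gene lists and 8 marker lists were chosen with earlier results of these data known. Named genes were Hif1a, Foxp3, the members, the genes of the ratios and up to 2 at each end of a list. Cd80, Cd86, Icosl, Pvr, Ptpn6, Ptpn11, Lrba, Pdcd4, Cd40lg, H2-Eb1, Nt5e, Nrp1 and the chromosomal neighbours were named after their values were seen. Alternatives were other scalings, pseudocounts, size rules, a count minimum, gene length and the deposited log2 values.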

Additional observations from a re-analysis of the deposited data

How the results depend on the processing

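No paired analysis was possible because each genotype has 1 library. For the same reason no library could be left out. All 72 alternative log2 ratios of the 8 genes kept their sign, and 64 stayed within the counting interval; the other 8 were Icos with total counts and 7 genes scaled on pan T cell markers, a scaling that shifted the all-gene median by -0.20, the median of the checkpoint receptors to -0.75 and the share of higher among called genes from 56.6% to 40.6%. That scaling sets the median log2 ratio of the pan T cell markers, 0.21 under TMM, to 0, and so lowers the values of all genes. Why those markers lay above 0 under TMM was not tested. With total counts 2 checkpoint receptors were at least 2-fold higher, since Cd274 passed the rule. A 1.5-fold rule gave 2 higher and 3 lower checkpoint receptors, with Cd274 and Pdcd1 added, and, over the table, 2118 higher and 1940 lower genes in place of 1170 and 897. A 4-fold rule gave 0 higher and 0 lower checkpoint receptors, and 382 higher and 189 lower genes. With a mean count of at least 200, 624 genes were higher and 580 lower, because fewer genes were counted; Havcr2 and the other 7 remained above that minimum. Depth limits Havcr2 most, at 221 and 383 counts.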
